A study of Mus musculus with 6 samples.

Results

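The elastic fiber and fibronectin genes are 10 genes whose proteins build the elastic fiber or the fibronectin matrix: Eln, Fbn1, Fbln1, Fbln2, Fbln5, Mfap4, Mfap5, Lox, Loxl1 and Fn1. They were chosen by name, with earlier results of these data known. A probe set, the group of short oligonucleotides that reads a transcript, was taken for a gene when the platform annotation gave it that 1 symbol. Of the 10 genes, 9 had such a probe set, and 8 had a signal high enough to be tested, among 12518 genes tested of 18194 with a named probe set. The tumors came from K14-cre; ApcCKO/+ mice, in which the keratin 14 promoter drives Cre in epithelial cells and Cre removes part of 1 conditional allele of the tumor suppressor Apc. The study described them as acinar in type, with a truncating mutation in the remaining Apc allele, and mice of the study were killed when a tumor was large or the animal moribund. The tumor-bearing mice were of mixed strain background. The control mammary glands came from age-matched mice without cre, and the sources used here do not say how the glands were dissected. RNA of 3 tumors and of 3 control glands was hybridized to Affymetrix M430 arrays, 1 for each sample. Samples of a group are named biological replicates in the labels, with nothing on whether each came from a separate mouse, so the p-values measure the spread between these samples, which may be partly technical.

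An elastic fiber has a core of crosslinked elastin inside a sheath of microfibrils, which are made mainly of fibrillins. Cells secrete the soluble precursor tropoelastin, fibulins and microfibril-associated proteins bring it to the microfibril, and lysyl oxidases, which need copper, oxidize its lysines so that the chains crosslink. Fibronectin is a separate fibrillar protein, which cells stretch into fibers through integrins and on which microfibrils and collagens are laid down. In the mammary gland these proteins are made mostly by fibroblasts and by cells of the vessel wall, and they surround the ducts, the fat cells and the vessels.

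Most of these genes were lower in tumors. Of the 8 genes tested, 6 fell in tumors (Eln, Mfap5, Fbln5, Lox, Loxl1 and Fn1) and 0 rose, while Fbln1 and Fbln2 did not pass the test. A gene was called at an adjusted p under 0.05, from limma with Benjamini-Hochberg adjustment over all 12518 genes. Over all genes tested, 16.8% were called lower and 16.3% were called higher. With arrays set to equal medians, 1666 genes were called lower and 3027 higher, against 2098 and 2045 with the arrays as deposited, and the same 6 of these genes were lower. For 7 of the 8 genes every tumor lay below every control gland, which held for 23.1% of all genes tested. The median log2 fold change of the 8 genes, tumor minus control gland, was -2.85, and that of all genes tested was 0.07. The changes ran from -4.09 for Loxl1 to -1.15 for Fbln2. The filter, which asked for 3 or more arrays at 100 or above, was met by the control glands alone for each of the 8 genes, and each also reached 100 in at least 2 tumors.

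**Figure D1:**
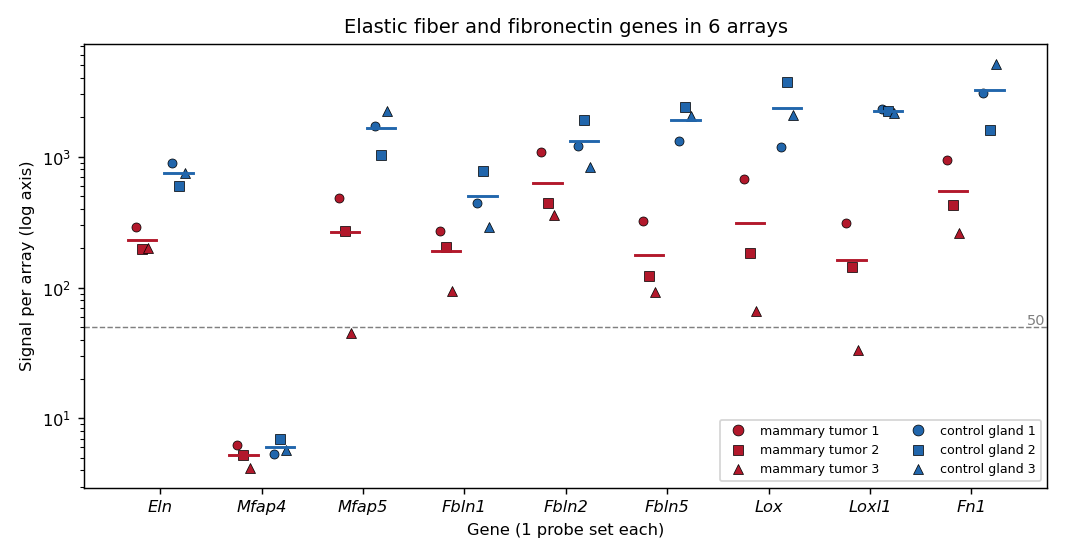
The signal of the probe set that stands for each gene is plotted on a log axis for 3 mammary tumors (red, left) and 3 control mammary glands (blue, right), with symbols for sample 1, 2 and 3 and bars at the group means. Tumors lie below control glands except for Fbln2, where tumor 1 lies above control gland 3, and for Mfap4, which is below the dashed line at 50 on all 6 arrays and was not tested.

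Elastin was about 3-fold lower in tumors. Eln (probe set 1420855_at), which encodes tropoelastin, had signals of 289, 198.6 and 200 in tumors 1, 2 and 3, against 898.9, 593.3 and 745.2 in control glands 1, 2 and 3. The tumors lay close together, within a range of 1.46-fold, and all of them were well below the lowest control gland. The fold change was 3.26 lower in tumors (log2 fold change -1.70, SE 0.26, limma adjusted p = 0.00312). A further Eln probe set stayed under the signal minimum, with 14.8 to 27.8 in tumors and 28.4 to 96.3 in control glands, and was not tested.

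Among the microfibril proteins, Mfap5 fell in tumors. It encodes a small glycoprotein that binds fibrillin. Its signal on probe set 1418454_at was 481.5, 272.5 and 44.7 in tumors and 1713, 1022.5 and 2227.6 in control glands. Tumor 3 was below 50, the level at which low signals were set, and tumor 1 was the highest of the tumors but under the lowest control gland. The log2 fold change was -3.07 (SE 0.78, limma adjusted p = 0.0222), or 8.41-fold lower. The call did not hold without control gland 1 (adjusted p = 0.0563), without control gland 3 (0.0692) or without tumor 2 (0.0504), and the log2 fold change was -2.12 without tumor 3 and -3.75 without tumor 1. A second Mfap5 probe set gave 172.1, 77.2 and 32.4 in tumors and 522.2, 487.3 and 641.3 in control glands (log2 fold change -2.65, adjusted p = 0.00385 in a limma fit over 22492 probe sets). On that probe set too the groups did not overlap, and tumor 3 was again the lowest.

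Mfap4, whose protein binds elastin and collagen, had signals of only 6.3, 5.2 and 4.2 in tumors and 5.3, 7 and 5.7 in control glands. The groups overlapped, and at this level its single probe set allowed no comparison. Fbn1, the gene of fibrillin-1, the main microfibril protein, was not analysed here, because the annotation used gives its symbol to no probe set.

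Of the 3 fibulins, Fbln5 fell in tumors, and Fbln1 and Fbln2 did not pass the test. Fibulins are secreted glycoproteins with strings of EGF-like modules, and fibulin-5 binds both tropoelastin and Loxl1. Fbln5 (probe set 1416164_at) had signals of 320.9, 121.8 and 91.9 in tumors, against 1318.5, 2406.8 and 2037.2 in control glands. Even the highest tumor was far under the lowest control gland. The gene was 12.2-fold lower in tumors (log2 fold change -3.60, SE 0.48, limma adjusted p = 0.00188), and 1.45% of all genes tested had a lower log2 fold change.

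Fbln1, whose protein binds fibronectin and is found in elastic fibers, gave on probe set 1451119_a_at 268.1, 205 and 94.2 in tumors and 438.9, 784 and 289.3 in control glands. The groups did not overlap, but tumor 1 and control gland 3 nearly met, and the log2 fold change of -1.42 (95% interval -2.57 to -0.28) missed the threshold with a limma adjusted p of 0.0598. It passed without tumor 1 (adjusted p = 0.0475) and when the probe sets of a gene were averaged (0.0429). Of the other Fbln1 probe sets above the signal minimum, one gave a log2 fold change of -1.36 with overlapping groups (adjusted p = 0.128), and the other, with 87.2 to 125.6 in tumors and 135 to 149 in control glands, gave -0.43 (0.199). The estimates for Fbln1 thus differed between probe sets, and none of them passed.

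Fbln2, which encodes a fibronectin-binding fibulin of basement membranes and vessel walls, gave on probe set 1423407_a_at 1090.1, 442.3 and 359.8 in tumors and 1217.1, 1901.4 and 827.5 in control glands. Tumor 1 was above control gland 3, and tumors 2 and 3 were below all control glands. The log2 fold change was -1.15 (95% interval -2.28 to -0.03, limma adjusted p = 0.103), and without tumor 1 it was -1.64 (0.0228). Further probe sets of Fbln2 and Fbln5 were under the signal minimum and were not tested.

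The promoter windows of the fibulins are shown because Fbln5 alone in this family passed the test. A passed and a missed threshold do not show that the genes differed from each other. RefSeq promoter sequences of mouse build GRCm38.p6, from 250 bases before to 50 bases after an annotated start, were used for Fbln1, Fbln2 and Fbln5 among the genes tested. Not every chromosome was included, so windows of other genes of the set may be missing. Capitals mark matches, on either strand, to CCAAT or to the GC box GGGCGG, which appears as its reverse complement when it lies on the other strand. No matches overlap. The first is the Fbln5 window, at chr12:101819070-101819369 on the minus strand, the second a Fbln1 window at chr15:85205758-85206057 on the plus strand, and the third the Fbln2 window at chr6:91212514-91212813 on the plus strand.
Fbln5: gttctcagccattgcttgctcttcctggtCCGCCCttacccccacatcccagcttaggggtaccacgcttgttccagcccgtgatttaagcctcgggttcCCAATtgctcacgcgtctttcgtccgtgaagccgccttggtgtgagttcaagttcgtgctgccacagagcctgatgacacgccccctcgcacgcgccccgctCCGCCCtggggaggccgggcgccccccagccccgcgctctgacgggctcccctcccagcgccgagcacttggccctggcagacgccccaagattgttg
Fbln1: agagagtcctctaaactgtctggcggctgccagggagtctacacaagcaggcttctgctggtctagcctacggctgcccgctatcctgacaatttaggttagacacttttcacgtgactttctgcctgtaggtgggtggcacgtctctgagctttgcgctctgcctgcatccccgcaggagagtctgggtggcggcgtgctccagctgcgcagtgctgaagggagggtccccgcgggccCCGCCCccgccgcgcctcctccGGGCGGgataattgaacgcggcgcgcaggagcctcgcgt
Fbln2: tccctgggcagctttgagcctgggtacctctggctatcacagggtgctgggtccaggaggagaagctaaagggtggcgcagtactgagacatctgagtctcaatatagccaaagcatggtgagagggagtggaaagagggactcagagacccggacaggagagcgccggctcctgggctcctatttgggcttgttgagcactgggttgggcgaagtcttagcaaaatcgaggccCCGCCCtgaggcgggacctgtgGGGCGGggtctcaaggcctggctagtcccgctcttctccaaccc

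Each of these 3 windows held 2 GC boxes, and the Fbln5 window alone among them held a CCAAT box, with 1 match. Of 32851 promoter windows of this length, 35.7% held a GC box and 37.4% a CCAAT box. Further motifs were searched on both strands and had 0 matches in the 3 windows: the TATA box TATAAA, in 13.6% of all windows, the AP-1 motif TGANTCA, in 7.81%, the TEAD motif GGAATG, in 14.7%, and the CArG box, in 1.63%. The GC content was 65.7% for Fbln5, 64% for Fbln1 and 60.3% for Fbln2, against a median of 52.7% over all windows. A second annotated start of Fbln5 and another of Fbln1 had windows with 0 matches to any of the 6 motifs. A match of letters is only a description, and no match says nothing about a factor.

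Both lysyl oxidases fell in tumors. Lox and Loxl1 encode copper-dependent amine oxidases that crosslink elastin, and Lox also crosslinks collagen. Loxl1 (probe set 1451978_at) gave 312.1, 143 and 33.5 in tumors, against 2312.6, 2233.7 and 2149.5 in control glands. The control glands agreed within 1.08-fold, whereas the tumors spread over 9.32-fold, with tumor 3 below 50. Loxl1 was 17.1-fold lower (log2 fold change -4.09, SE 0.59, limma adjusted p = 0.00258), the largest change among the 8 genes, and only 0.895% of all genes tested had a lower log2 fold change. Without tumor 1 the log2 fold change was -4.72 and without tumor 3 it was -3.40, and the call held with each array left out. A second Loxl1 probe set was under the signal minimum.

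Lox (probe set 1416121_at) had signals of 678.1, 184.9 and 66.7 in tumors and 1192.4, 3754.3 and 2091.8 in control glands. Both groups were spread, 10.2-fold among tumors and 3.15-fold among control glands, but they did not overlap. The log2 fold change was -3.38 (SE 0.82, limma adjusted p = 0.0183), or 10.4-fold lower in tumors. The call was lost without control gland 2 (adjusted p = 0.0584), control gland 3 (0.0506) or tumor 2 (0.0623), and the log2 fold change was -4.25 without tumor 1 and -2.57 without tumor 3. A second Lox probe set gave 225.7, 72.4 and 18.1 in tumors and 740, 2416.4 and 1409.6 in control glands (log2 fold change -3.86, adjusted p = 0.00355). It had the same order of samples within each group as the first. Another Lox probe set was under the signal minimum.

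Fibronectin also fell in tumors. Fn1 (probe set 1426642_at) gave 948.5, 429 and 259.1 in tumors, against 3066.7, 1600.6 and 5099.1 in control glands. Tumor 1 was the closest to the control glands but stayed under the lowest of them. Fn1 was 6.19-fold lower (log2 fold change -2.63, SE 0.57, limma adjusted p = 0.0120), and the call held with each array left out but not without the filter on low signals (adjusted p = 0.0658). A second Fn1 probe set gave 36.4, 49.9 and 8.4 in tumors and 245.2, 177.7 and 519 in control glands. All tumors were below 50 on it, so that against a level of 50 the fold was at least 5.66 lower (limma adjusted p = 0.00297). With all tumors set to 50, no spread among tumors enters that p-value. Of all 19 probe sets of the 9 genes, 13 were above the signal minimum. Of these 13, 9 were called lower in tumors, against 15.2% of the 22492 probe sets tested. The control glands alone met the filter for each of these 9. On their second probe sets, Mfap5 and Lox reached 100 in tumor 1 alone among the tumors, and Fn1 in none. The 15.2% covers probe sets that met the filter in any way. These shares are therefore not like for like, and the count adds no support to the tests of the genes.

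**Figure D2:**
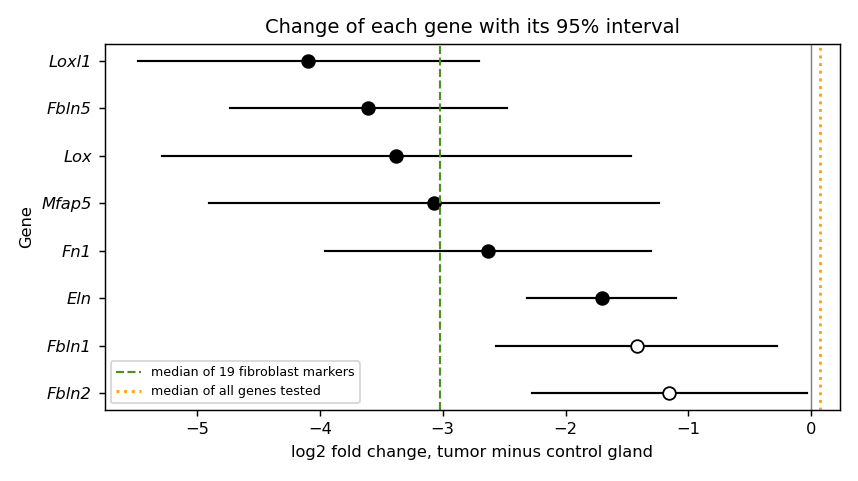
The log2 fold change, tumor minus control gland, is plotted for each gene with its 95% interval from limma over 3 tumors and 3 control glands. Filled points passed an adjusted p of 0.05 and open points did not. All 8 points lie below the median of all genes (dotted line, 0.07), from -4.09 for Loxl1 to -1.15 for Fbln2, and on both sides of the median of the fibroblast markers (dashed line, -3.02).

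The 8 genes ordered the tumors in nearly the same way. Tumor 1 had the highest signal of the 3 tumors for all 8 genes. Tumor 3 had the lowest for 7, and for Eln tumors 2 and 3 had almost the same signal. The share of all genes tested with this order was not computed. The summed signal of the 8 genes was 4388, 1997 and 1150 in tumors 1, 2 and 3, and 12158, 14297 and 15467 in control glands 1, 2 and 3. Among control glands no such order was seen, and each of the 3 was the highest for at least 2 of the genes. For Gapdh, the signal at the 3' end over that at the 5' end, a sign of RNA quality, was 0.795, 1.02 and 1.25 in tumors 1, 2 and 3 and 0.839 to 0.891 in control glands. Its part in the result was not tested. The corresponding ratio for actin was 1.44, 2.20 and 2.32 in tumors 1, 2 and 3, the same order as for Gapdh. For actin the groups overlapped, with 1.46 to 2.30 in control glands, and its part was not tested either.

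Markers of fibroblasts moved with these genes. Of 19 fibroblast markers tested, 15 fell in tumors, 0 rose and 4 did not pass, with a median log2 fold change of -3.02, and for 17 the tumors lay below all control glands. Among all genes tested, 16.8% were called lower and 16.3% higher, and the tumors lay below all control glands for 23.1%. The summed signal of the markers was 21194, 11484 and 4477 in tumors 1, 2 and 3, the order seen for the 8 genes, and 56363 to 82788 in control glands. That order of tumors was not particular to fibroblast markers. The sums of adipocyte, endothelial, and smooth muscle and pericyte markers had it too. Those of macrophage and myoepithelial markers did not, and those of pan-epithelial markers had the reverse. The markers with the largest changes were Dpt at -5.71, the proteoglycan gene Lum at -4.57, the growth factor receptor gene Pdgfra at -4.18 and the collagen gene Col5a1 at -3.56 on the log2 scale. Col5a1 did not pass without control gland 3 (-1.87, adjusted p = 0.0520), was at -2.36 without control gland 1, at -1.58 without control gland 2 and at -4.29 without tumor 1, and averaging the probe sets of a gene gave -2.43 for Col5a1 and -2.45 for Pdgfra. Dpt ranged from -6.58 without tumor 2 to -4.71 without tumor 3, and Lum from -5.19 without tumor 1 to -3.56 without tumor 3. Tcf21 (-0.14, adjusted p = 0.709) and Dpp4 (0.49, adjusted p = 0.523) were the furthest from passing. No marker was below 50 in all 3 tumors. In these bulk samples, fewer cells of a type and less RNA per cell cannot be told apart.

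Set against the fibroblast markers, the genes lay on both sides. On each array the mean log2 signal of the 19 markers was subtracted from that of the gene, and the tumor and control values were compared by a 2-sided exact permutation test, whose smallest possible p with 3 samples against 3 is 0.1. The difference, tumor minus control gland, was -1.35 for Loxl1 and -0.86 for Fbln5. It was 1.04 for Eln, 1.32 for Fbln1 and 1.59 for Fbln2. For these 5 genes the tumor and control values did not overlap. Over all genes tested on the same scale, the tumors lay below all control glands for 1.08%, as for Loxl1 and Fbln5, and above all of them for 88.5%, as for Eln, Fbln1 and Fbln2, so the position of the last 3 was that of most genes. Each of the 5 had the smallest p this design allows (exact p = 0.1 each, 0.16 after Benjamini-Hochberg adjustment over the 8 genes), and none could pass a threshold of 0.05. Mfap5 (-0.33, exact p = 0.5), Lox (-0.63, exact p = 0.4) and Fn1 (0.11, exact p = 0.9) overlapped. In tumor 3 Loxl1 (33.5) and Mfap5 (44.7) were set to 50, as were the markers Col1a1, Pi16, Clec3b and Twist2. The differences therefore depend in part on that floor.

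**Figure D3:**
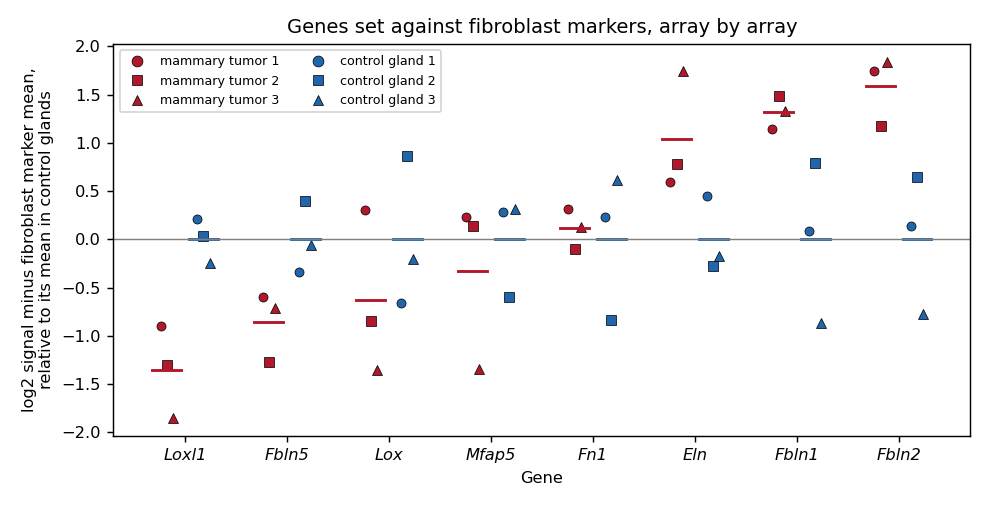
For each gene the log2 signal minus the mean log2 signal of 19 fibroblast markers is plotted per array, shifted so that the control glands average 0, for 3 tumors (red, left) and 3 control glands (blue, right), with bars at the group means. Tumors lie below all control glands for Loxl1 and Fbln5 and above all of them for Eln, Fbln1 and Fbln2, and the groups overlap for Lox, Mfap5 and Fn1.

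The changes were also compared gene with gene. Among the 28 pairs of the 8 genes, Fbln2 and Loxl1 stood furthest apart, with log2 fold changes that differed by 2.94, and Eln and Loxl1 differed by 2.39. Within the fibulins, Fbln2 and Fbln5 differed by 2.45 and Fbln1 and Fbln5 by 2.18. The ratio of the paired genes did not overlap between groups for 11 of the 28 pairs, those named here among them. The share over pairs of other genes was not computed. With 3 samples against 3 the smallest possible exact permutation p is 0.1, so no pair could pass a threshold of 0.05. After adjustment over the 28 pairs the smallest was 0.255, and this test cannot decide whether any pair differed.

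Other proteins of the microfibril and the elastic fiber fell as well. Of 17 such genes tested, 11 were lower in tumors, 0 were higher and 6 did not pass, with a median log2 fold change of -2.09. Among all genes tested, 16.8% were called lower and 16.3% higher. Efemp1, which encodes fibulin-3, gave 93.3, 394.6 and 5.4 in tumors, against 3228, 4664.5 and 6491.4 in control glands (log2 fold change -5.23, limma adjusted p = 0.00199). Its log2 fold change was below that of each of the 8 genes above, and was -6.08 without tumor 2 and -4.59 without tumor 3. Dcn, the gene of the collagen-binding proteoglycan decorin, was at -3.28, Emilin2, an elastic fiber glycoprotein gene, at -2.98, and Ltbp4, a latent TGF-beta binding protein gene needed for elastic fiber assembly, at -2.60. Without the filter on low signals Ltbp4 did not pass (adjusted p = 0.0536), and it was at -1.96 without tumor 2, while Emilin2 was at -2.39 without tumor 3. Mfap3 did not pass, with 1436 to 1582 in tumors and 1460 to 1665 in control glands (adjusted p = 0.972), and neither did Ltbp3 (-0.49, adjusted p = 0.377). Vcan, the gene of versican, a proteoglycan that binds fibrillin and fibulins, gave 2398.7, 853.4 and 200.8 in tumors and 198.2, 106.9 and 269.6 in control glands. Tumors 1 and 2 were above all control glands and tumor 3 was not, and the test was not passed (log2 fold change 2.06, adjusted p = 0.0976). Vcan falls outside the rule for naming genes and was picked after its values were seen.

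Genes that act with lysyl oxidases did not move together. Of 7 tested, 2 fell, 1 rose and 4 did not pass, with a median log2 fold change of 0.28. Over all genes tested 16.8% were called lower and 16.3% higher, so these counts do not set the list apart. Pcolce, whose product enhances cleavage of procollagen by Bmp1, gave 1277.6, 529.6 and 271.3 in tumors and 2854.2, 3630.5 and 2952 in control glands (log2 fold change -2.46, limma adjusted p = 0.0108). Without the filter on low signals its adjusted p was 0.0602. Bmp1, a protease that activates Lox by removing its propeptide, was at -1.73, with an adjusted p of 0.0499 that exceeded the threshold in 11 of 17 alternatives, among them leaving out any array but tumor 1 (0.0776 to 0.125). Without tumor 1 it was at -2.35. Slc31a1, the gene of the copper importer of the cell membrane, rose to 1069.7, 1101.2 and 743.5 in tumors, against 446.9, 387.4 and 453.2 in control glands (log2 fold change 1.16, adjusted p = 0.00909). The related oxidase genes Loxl3 (-0.30, adjusted p = 0.513) and Loxl4 (0.43, adjusted p = 0.407) did not pass.

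Most receptors and assembly proteins of fibronectin did not pass the test. Of 14 tested, 3 fell, 1 rose and 10 did not pass, with a median log2 fold change of -0.12. These counts do not set the list apart from all genes tested, of which 16.8% were called lower and 16.3% higher. The tensins, which link integrins to actin and are found at sites of fibronectin assembly, went in opposite directions. Tns1 gave 592.2, 328.7 and 416.8 in tumors, against 7378.6, 10672.8 and 8580.6 in control glands (log2 fold change -4.34, limma adjusted p = 0.000153). Tns3 gave 4965.8, 3601.8 and 6132.4 in tumors, against 1804.8, 1452.6 and 1997.9 in control glands (1.46, adjusted p = 0.00627). The groups did not overlap for either. Tgm2, a transglutaminase gene whose product also binds fibronectin, fell by 1.79 on the log2 scale (adjusted p = 0.0179). Its adjusted p was 0.0551 without control gland 1, 0.0546 without control gland 2 and 0.0763 without the filter on low signals. Itga4, an integrin subunit of leukocytes and other cells, fell by 1.45 (adjusted p = 0.00550). Sdc2, a syndecan gene, and Fermt2, the gene of an integrin activator, gave 0.01 and 0.06 (adjusted p = 0.986 and 0.870).

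Enzymes that cut elastin or fibronectin were mostly lower. Of 10 tested, 6 fell, 0 rose and 4 did not pass, with a median log2 fold change of -1.72. Among all genes tested, 16.8% were called lower and 16.3% higher. The matrix metalloproteinase genes Mmp2, Mmp3 and Mmp9 were at -2.57, -2.51 and -2.45 and the elastin-cleaving cathepsin gene Ctsk at -2.17. Mmp9 was at -1.84 when 50 was added to each signal in place of the floor. Ctss, the gene of another elastin-cleaving cathepsin, gave 4938 to 8180 in tumors and 4192 to 6647 in control glands (log2 fold change 0.12, adjusted p = 0.778). Mmp14, a membrane-bound protease gene, did not pass either (-0.76, adjusted p = 0.119).

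**Figure D4:**
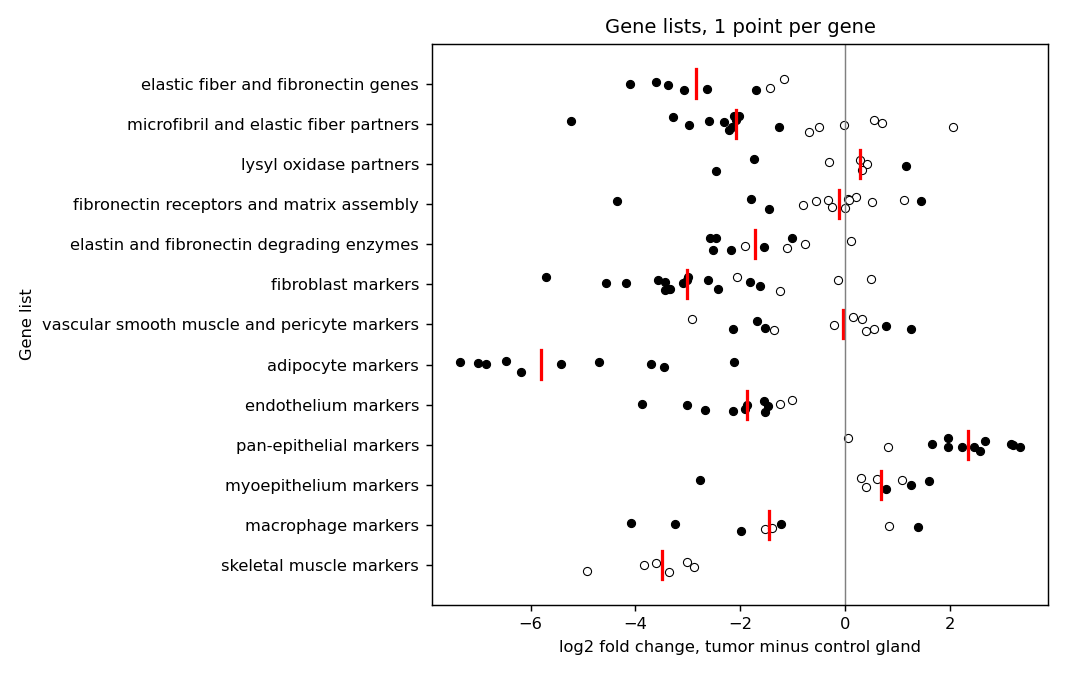
Each point is the log2 fold change, tumor minus control gland, of 1 gene of a list, from 3 tumors and 3 control glands. Filled points passed an adjusted p of 0.05, open points did not, and the red bar is the median of the list, which is -2.85 for the elastic fiber and fibronectin genes, -3.02 for fibroblast markers, -0.03 for smooth muscle and pericyte markers and 2.35 for pan-epithelial markers.

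Markers of other cell types also differed between the groups, and their part in the result was not tested. All 10 adipocyte markers tested fell, with a median log2 fold change of -5.80 and a summed signal of 7313 to 17189 in tumors and 165258 to 221055 in control glands. Of 11 endothelial markers, 9 fell and 2 did not pass, with a summed signal of 1962 to 4481 in tumors and 8878 to 11611 in control glands. Of 12 smooth muscle and pericyte markers, 3 were lower, 2 higher and 7 not passed, near the 16.8% lower and 16.3% higher over all genes tested. Their median was -0.03, with sums of 29472 to 39403 in tumors and 25135 to 37262 in control glands. Acta2 alone gave 16618.5 to 19442.8 of these sums in tumors and 9566.2 to 10799.6 in control glands. The flat median covers opposite changes: Mcam (-2.14), Abcc9 (-1.68) and Cspg4 (-1.52) were lower, and Acta2 (0.78) and Cnn1 (1.26) higher. Of these called genes, Cspg4 alone kept its call under all 17 alternatives. Of 8 myoepithelial markers, which share Acta2, Cnn1 and Myh11 with that list, 1 fell and 3 rose, with sums of 21325 to 27343 in tumors and 15092 to 16767 in control glands. Pan-epithelial markers were higher, 10 of 12 having risen, with 76848 to 100653 in tumors and 11738 to 26166 in control glands. Of 8 macrophage markers, 4 fell and 1 rose, with sums of 4590 to 9055 in tumors and 18235 to 29132 in control glands. In these 7 lists, the skeletal muscle one included, no marker was below 50 in all 3 tumors.

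Skeletal muscle RNA was uneven within both groups. Of 6 muscle markers, 0 passed the test, and their summed signal was 31594, 1423 and 478 in tumors 1, 2 and 3 and 5814, 142744 and 53093 in control glands 1, 2 and 3. Tumor 1, the highest tumor for all 8 genes, was also the highest tumor for muscle. Control gland 2, the highest for muscle, was the highest control gland for 4 of the 8 genes and the lowest for 3. Without tumor 1 all 8 genes were called lower, as were 2012 of 12140 genes tested. Without control gland 2 the count was 5, with 1354 of 11946 genes tested. It was also 5 without control gland 1, with 1377 of 11879, and 4 without control gland 3, with 1151 of 11897. The part of muscle RNA in the result was not tested.

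The genes whose pattern over the 6 arrays was closest to the mean of the 8 genes were Pcolce, Abcc4, Sox18, Crip1 and Crot, with root mean square differences of 0.123, 0.150, 0.173, 0.183 and 0.194 in centered log2 signal. Each was lower in tumors, from -2.91 for Crot to -2.46 for Pcolce, though Sox18, like Pcolce, did not pass without the filter on low signals (adjusted p = 0.0599). Without tumor 3 Sox18 was at -2.09 and Crot at -2.30, and without tumor 1 Sox18 was at -3.31. Each had tumor 1 highest and tumor 3 lowest of the tumors. The mean of the 8 genes has the same direction and the same order of tumors. Both traits of these genes therefore follow from how they were picked and are no separate result. Pcolce was also among the lysyl oxidase partners listed above. The comparison rests on 3 arrays per group, whose number limits its precision.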

How the data were processed

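RNA of 3 mammary tumors and 3 control mammary glands was measured on Affymetrix M430 arrays. The deposited intensity values are linear signals that the authors computed with MAS5 and scaled to a target of 500 per array. Median signals were 124 to 138 in tumors and 133 to 171 in control glands. Of 45101 probe sets, 64 were controls, 34945 had 1 symbol in the platform annotation, 932 several and 9160 none, and 0 symbols were updated. A floor of 50 was applied before taking log2. Probe sets with at least 100 on at least 3 arrays were kept, and each gene was read from its brightest one by mean log2 signal. The 2-sided comparison used limma 3.58.1 (lmFit, eBayes) under R 4.3.3, with Benjamini-Hochberg adjustment over all genes. The script was tested on simulated data. Alternatives were other floors, scalings, filters and probe set rules, a variance trend, a replicate block, each array left out, a 2-fold limit and the methods' t-test. The genes and lists were chosen with earlier results of these data known. Named genes were all 10 with their probe sets, in each other list up to 4 called genes with the largest change and the 2 with the largest p, and the 5 genes of nearest pattern. Of the cell type lists other than fibroblasts only counts and sums are given, with the called genes for smooth muscle and pericytes. Fnbp1, a formin-binding protein gene first listed by mistake among fibronectin receptors, was taken out after its values were seen. Promoters came from RefSeq.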

Additional observations from a re-analysis of the deposited data

How the results depend on the processing

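Eln, Fbln5 and Loxl1 kept their direction and call under all 17 alternatives of the limma fit, with log2 fold changes of -1.88 to -1.47, -4.14 to -3.20 and -4.72 to -3.40. Mfap5 and Lox each missed the threshold under 4 and Fn1 under 1, with adjusted p up to 0.103, 0.0912 and 0.0658, all without the filter on low signals, where 3 of the 8 genes were lower and, of 18193 genes tested, 1564 were lower and 1703 higher. Fbln1 passed under 3 and Fbln2 under 1, and no direction reversed. Leaving out 1 array gave 4 to 8 genes lower, 4 without control gland 3 or tumor 2 and 8 without tumor 1, and over all genes 1151 to 2012 lower and 1241 to 1545 higher. With a 2-fold limit the same 6 were lower, and 1818 of all genes were lower and 1329 higher. The methods' t-test (a statistic of at least 4.5 and a ratio of at least 2) gave 3 of the 8, Eln, Fbln5 and Loxl1, and over all genes 920 lower and 685 higher. After Benjamini-Hochberg adjustment it gave 1, Loxl1, and 73 lower and 67 higher. Equal array medians moved the median of all genes to 0.31 and that of the 8 genes to -2.64. The replicate numbers did not pair the samples (correlations of deviations -0.22, 0.02 and 0.04); with the replicate number as a block 7 genes were lower, Fbln1 (adjusted p = 0.0281) being added, and 1860 of all genes were lower and 1630 higher. Values below 50 in tumor 3 limit the size of the change for Mfap5 and Loxl1.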
